A study of Mus musculus with 15 samples.

Results

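Basophils and mast cells are rare granulocytes that carry the high-affinity receptor for IgE and store histamine and proteases in their granules. The expression of 8 genes by which these cells are recognised (Prss34, Mcpt8, Cpa3, Ms4a2, Fcer1a, Hdc, Gata2 and Cd200r3) was followed in gut ILC2s and in the bone marrow precursors of ILC2s (ILC2p), with and without tamoxifen treatment to delete Tgfbr2, which encodes a TGF-β receptor chain. The genes were chosen by name, and the choice was made with measured values of these libraries already known, so their differences, and whether the fit over all genes called them, are given as a description and without p-values. Each has 1 entry among the 24690 entries and 24089 gene symbols of the deposited tables. Of the 8 genes, 4 (Prss34, Mcpt8, Fcer1a and Hdc) were far higher in all Tgfbr2-/- than in all WT ILC2p libraries, Gata2 was higher in 3 of the 4 Tgfbr2-/- libraries, Cpa3 was at a similar level in both, Ms4a2 was almost without reads, and Cd200r3 was seen in only 1 of the 8 ILC2p libraries. Of all 9242 genes tested in ILC2p, 580 (6.28%) were higher in every Tgfbr2-/- than in every WT library.

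The data are 15 RNA-seq libraries of C57BL/6 mice with floxed Tgfbr2 alleles and a tamoxifen-inducible Cre (Tgfbr2f/fER-Cre+). Tamoxifen switches on the Cre, which is not restricted to ILC2s, and the share of cells that deleted Tgfbr2 was not measured here. The WT controls carried the same alleles and Cre but were given sunflower oil. Lamina propria (LP) ILC2s, gated on CD127, Sca-1, CD25 and KLRG1 among lineage-negative CD45+ cells, were sorted from mice 8 to 12 weeks old 1 day after 5 daily injections of 1 mg tamoxifen (Tgfbr2-/-, 3 libraries) or oil (WT, 4 libraries). BM ILC2p, gated on CD127, α4β7 and CD25 among lineage-negative CD45.2+ cells, were sorted from chimeras 6 weeks after irradiated CD45.1 hosts had received CD45.1 BM mixed with CD45.2 BM of tamoxifen-treated (Tgfbr2-/-, 4 libraries) or oil-treated (WT, 4 libraries) mice. The methods describe these tamoxifen-treated donors as 8 to 12 weeks old and treated for the same 5 days at 1 mg a day. Cells of the hosts and of the CD45.1 donors were outside this gate. The lineage antibodies that the methods name as examples, CD11b and Gr-1 among them, include none against FcεRI, CD49b or CD200R3, the surface proteins commonly used to recognise basophils. The methods also name a lineage depletion kit for BM, whose antibodies they do not list. Each cell type was studied in 2 experiments. Between 12167066 and 32114265 reads were counted on genes in an LP ILC2 library, and between 10957021 and 35961215 in an ILC2p library. Levels are given as CPM (counts scaled by TMM and by sequencing depth) or, where genes are compared with each other, as RPKM, which also divides by transcript length. The labels do not say whether the libraries of 1 group came from different mice, so p-values measure only the spread between libraries.

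The targeted gene was examined first. In LP ILC2s the WT libraries had 172, 262, 147 and 206 CPM of Tgfbr2, and the Tgfbr2-/- libraries had 206, 184 and 96.1 CPM. In ILC2p the WT libraries had 0.714, 233, 107 and 188 CPM, and the Tgfbr2-/- libraries had 87.2, 130, 30.8 and 218 CPM. Its log2 fold change was -0.46 ± 0.24 (SE, n = 7 libraries, adjusted p = 0.898) in LP ILC2s and -0.21 ± 1.21 (SE, n = 8 libraries, adjusted p = 0.989) in ILC2p, by the quasi-likelihood test of edgeR with p adjusted after Benjamini and Hochberg. The groups overlapped in both cell types, so every direction below is one between labels, and Tgfbr2-/- and WT stand for libraries that carry those labels. Counts over the full transcript do not show whether a part of the gene was deleted, so the overlap does not decide this. The WT ILC2p library at 0.714 CPM also had the largest share of missing genes (14.7%, defined below).

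The ILC2p libraries stood apart from the LP ILC2 libraries in how many genes they missed, and the genotypes of ILC2p differed in marker genes of other cells. Among genes whose median over the remaining libraries of their cell type reached 50 CPM, 1.36% to 14.7% were missing (under 1 CPM) from an ILC2p library, against 0.027% at most from an LP ILC2 library. In addition, all 4 Tgfbr2-/- ILC2p libraries carried abundant neutrophil transcripts. The 10 neutrophil marker genes (S100a8, S100a9, Ngp, Ltf, Camp, Lcn2, Mmp8, Mmp9, Cxcr2 and Retnlg), all of which had reads in ILC2p of both genotypes, summed to between 72510 and 90706 CPM in Tgfbr2-/- ILC2p, against 175 to 485 CPM in WT ILC2p, 0.769 to 15.2 CPM in WT LP ILC2s and 7.68 to 21.9 CPM in Tgfbr2-/- LP ILC2s. The most abundant was S100a8, at 23770 to 29562 CPM in Tgfbr2-/- and 59.0 to 167 CPM in WT ILC2p. The 14 ILC2 marker genes summed to 3490 to 5231 CPM in Tgfbr2-/- and 7900 to 11144 CPM in WT ILC2p, and Gata3, the transcription factor that defines ILC2s, led them in both. Gata3 (log2 fold change -1.41 ± 0.31, SE, adjusted p = 0.0603) and Il1rl1 (-1.96 ± 0.22, SE, adjusted p = 0.00156) were lower in Tgfbr2-/- ILC2p by edgeR's quasi-likelihood test. In bulk RNA, fewer cells of a type and less RNA per cell cannot be told apart. The part of the neutrophil transcripts in the values below was not tested.

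Basophils and mast cells descend from myeloid progenitors under the control of GATA2, which is required for both lineages. Basophils circulate and arise in the BM, and in the mouse they are marked by the granule proteases MCPT8 and PRSS34 and by the surface receptor CD200R3. Mast cells mature in tissues, including the gut, and contain chymases and tryptases. Both cell types share CPA3, the histamine-forming enzyme HDC and the α and β chains of FcεRI, the products of Fcer1a and Ms4a2.

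The promoters of the 8 genes were read from RefSeq (GRCm38.p6), where all 8 matched, and each was found at exactly 1 position of NCBIM37 (mm9), the build of the deposited tables. They are shown because genes that were higher in Tgfbr2-/- ILC2p differ in whether they hold GATAA, a form of the motif that GATA factors recognise. Other forms, such as GATAG, were not searched, so a window without GATAA may still hold a GATA motif. GATAA was searched on both strands from 250 bases before to 50 bases after the start of each gene. It was found in 5 of the 8 genes, 3 times in Ms4a2, 2 times in Cd200r3 and 1 time each in Prss34, Cpa3 and Fcer1a, and in 25.4% of all 32851 promoters of the table. It was not found in the windows of Mcpt8, Hdc or either window of Gata2. The longer AGATAA, which overlaps it, was found in the same 5 genes and in 11.2% of promoters, and TGATAA in Cd200r3 and in 9.05%. The E-box CANNTG was found in 7 of the 8 genes, all but Ms4a2, and in 72.3% of promoters. A match describes the letters and not a bound site. The 250 bases before the start of 5 genes are printed 5′ to 3′ on the strand of the gene, with GATAA or its reverse complement TTATC in capitals. The start given by RefSeq lies within the annotated gene (GENCODE, NCBIM37) for Mcpt8 and Hdc and at its first base for the other genes printed. They lie at chr17:25435089-25435338 (plus strand, Prss34), chr14:56704035-56704284 (minus strand, Mcpt8), chr3:20142081-20142330 (minus strand, Cpa3), chr1:175157361-175157610 (minus strand, Fcer1a) and chr2:126444415-126444664 (minus strand, Hdc).
Prss34: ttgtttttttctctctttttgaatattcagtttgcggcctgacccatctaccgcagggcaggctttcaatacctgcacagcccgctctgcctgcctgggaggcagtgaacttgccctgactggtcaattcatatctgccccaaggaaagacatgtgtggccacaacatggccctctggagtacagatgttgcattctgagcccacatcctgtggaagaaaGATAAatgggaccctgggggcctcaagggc
Mcpt8: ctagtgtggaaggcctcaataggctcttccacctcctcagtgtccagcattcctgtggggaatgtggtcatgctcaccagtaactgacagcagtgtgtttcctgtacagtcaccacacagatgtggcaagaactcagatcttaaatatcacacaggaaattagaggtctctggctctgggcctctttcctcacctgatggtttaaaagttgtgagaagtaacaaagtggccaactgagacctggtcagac
Cpa3: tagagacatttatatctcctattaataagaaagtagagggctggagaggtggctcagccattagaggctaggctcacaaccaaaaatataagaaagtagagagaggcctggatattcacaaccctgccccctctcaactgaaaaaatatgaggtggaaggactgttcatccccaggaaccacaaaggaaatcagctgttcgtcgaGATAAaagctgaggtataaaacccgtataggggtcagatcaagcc
Fcer1a: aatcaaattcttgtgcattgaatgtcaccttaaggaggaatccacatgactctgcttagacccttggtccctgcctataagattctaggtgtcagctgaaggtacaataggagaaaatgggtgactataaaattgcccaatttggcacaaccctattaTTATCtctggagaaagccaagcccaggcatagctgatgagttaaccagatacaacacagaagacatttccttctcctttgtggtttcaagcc
Hdc: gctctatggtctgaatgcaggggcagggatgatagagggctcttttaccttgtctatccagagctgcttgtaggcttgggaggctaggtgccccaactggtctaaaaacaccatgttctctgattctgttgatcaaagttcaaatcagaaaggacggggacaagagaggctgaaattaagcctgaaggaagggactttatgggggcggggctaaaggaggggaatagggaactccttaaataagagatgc

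The granule protease Prss34 (mast cell protease 11; chromosome 17, 25435339 to 25437106, plus strand of NCBIM37) was the most abundant of the 8 genes per transcript length in Tgfbr2-/- ILC2p, but not in WT ILC2p, where it was at 2.63 RPKM and Cpa3 at 139 RPKM. In experiment 1 the WT ILC2p libraries had 2.05 and 1.98 CPM, and those of Tgfbr2-/- ILC2p had 822 and 945 CPM. In experiment 2 the WT libraries had 5.15 and 2.18 CPM, and those of Tgfbr2-/- ILC2p had 899 and 927 CPM. The Tgfbr2-/- libraries were therefore all close to each other and far above all WT libraries, with a mean of 898 ± 54.4 CPM against 2.84 ± 1.54 CPM (SD, n = 4 each) and a log2 fold change of 8.33 ± 0.48 (SE). In the 7 LP ILC2 libraries Prss34 had 0 counts. A floor of 3 counts over these libraries together makes the mean of WT ILC2p at least 144-fold and that of Tgfbr2-/- ILC2p at least 45515-fold higher than in LP ILC2s. The floor covers counting error only.

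Mcpt8 (mast cell protease 8) is a granule protease of basophils (chromosome 14, 56701003 to 56704053, minus strand) and followed the same pattern at a lower level. Its WT ILC2p libraries were at 0.357 and 0.407 CPM in experiment 1 and 1.87 and 0.654 CPM in experiment 2. Its Tgfbr2-/- libraries were at 84.3 and 118 CPM in experiment 1 and 101 and 355 CPM in experiment 2. No Tgfbr2-/- library overlapped a WT library, and replicate 2 of experiment 2 was high among the former. The log2 fold change was 7.71 ± 1.01 (SE). It also had 0 counts in all LP ILC2 libraries, so that WT and Tgfbr2-/- ILC2p were at least 41.6-fold and 8330-fold higher. In RPKM, Mcpt8 was at 14.9%, 18.1% and 16.2% of the level of Prss34 in 3 Tgfbr2-/- libraries and at 55.5% in replicate 2 of experiment 2, while the Prss34 of this library (641 RPKM) was within the range of the others.

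Cpa3 encodes carboxypeptidase A3, a granule enzyme that is also expressed by immature BM progenitors. Its gene is at 20115516 to 20142080 of chromosome 3 (minus strand). Among the 8 genes it was the only 1 of the 6 genes that passed the filter in ILC2p without a call between genotypes. The WT ILC2p libraries were at 295, 118, 224 and 108 CPM and the Tgfbr2-/- libraries at 215, 133, 234 and 165 CPM. These ranges lie over each other, the log2 fold change was -0.23 in experiment 1 and 0.19 in experiment 2, and that over both was -0.02 ± 0.49 (SE). In LP ILC2s the WT libraries had 5.52, 0, 1.16 and 0 CPM of Cpa3, and those of Tgfbr2-/- mice 0.0322, 0 and 0.362 CPM. Every ILC2p library was above every LP ILC2 library, and the log2 difference of LP ILC2s from ILC2p was -8.73 ± 1.46 (SE). Cpa3 libraries were thus apart between the cell types but not between the genotypes of ILC2p, unlike those of Prss34 and Mcpt8.

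**Figure D1:**
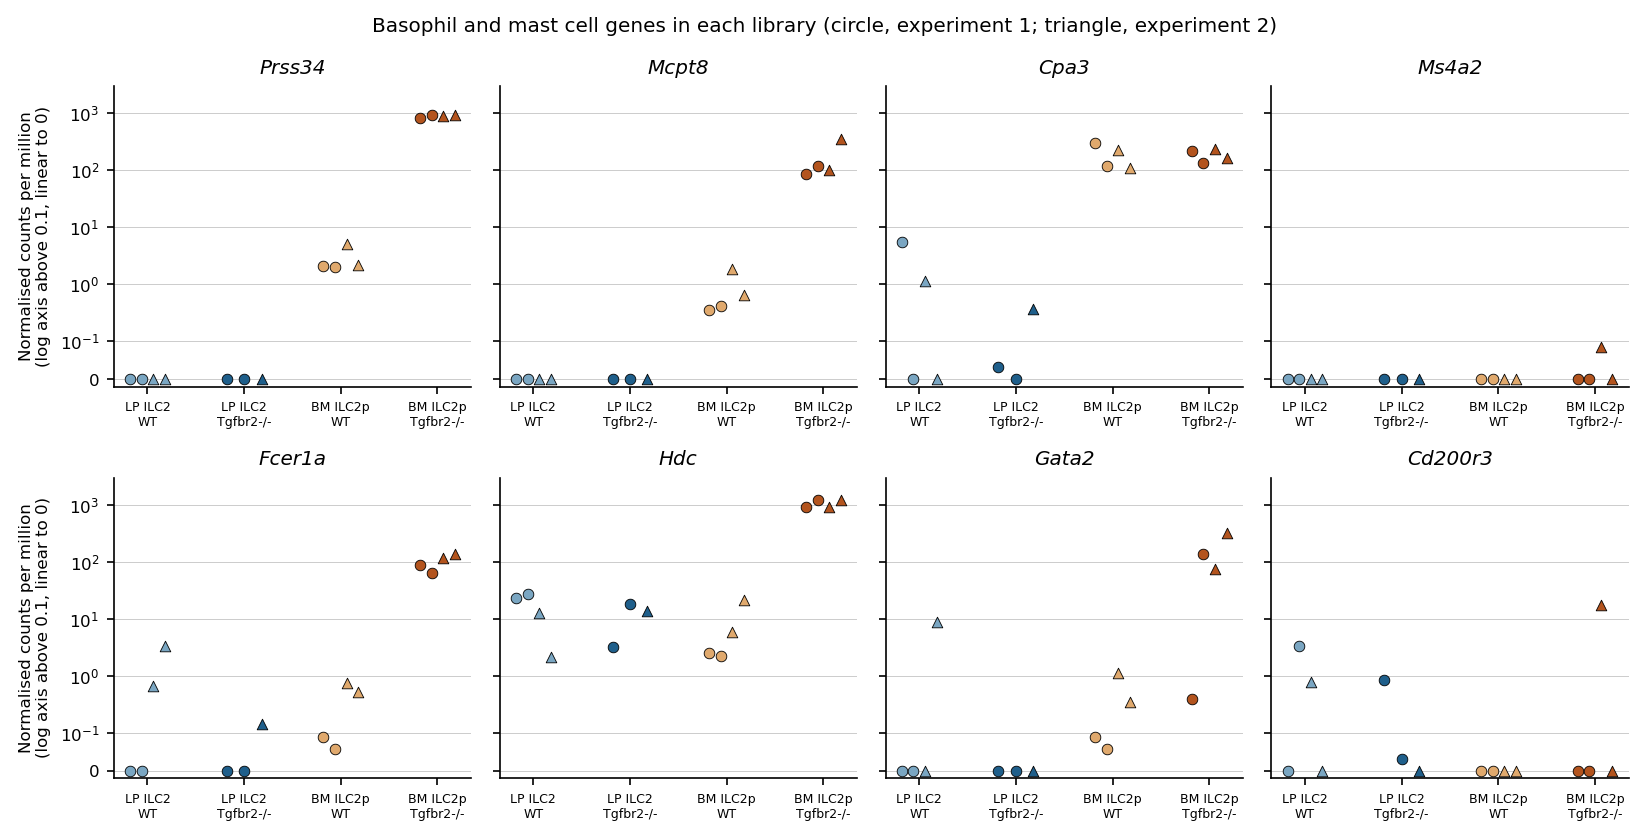
Normalised CPM (log axis above 0.1, linear down to 0) of the 8 genes, 1 point per library, in the 4 groups on the x axis. Circles are experiment 1 and triangles experiment 2. Prss34, Mcpt8, Fcer1a and Hdc are higher in all 4 Tgfbr2-/- ILC2p libraries than in all WT libraries, Cpa3 is similar in both genotypes of ILC2p, and Gata2 is low in 1 Tgfbr2-/- library.

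Hdc encodes histidine decarboxylase, the enzyme that makes histamine, and its gene is at 126419403 to 126445035 of chromosome 2 (minus strand). It was the only member with reads in all 15 libraries. The WT ILC2p libraries were at 2.50, 2.21, 5.77 and 21.1 CPM and the Tgfbr2-/- libraries at 927, 1234, 896 and 1201 CPM, with no overlap and a log2 fold change of 7.51 ± 0.80 (SE). In LP ILC2s the WT libraries were at 23.4, 26.8, 12.5 and 2.09 CPM and the Tgfbr2-/- libraries at 3.25, 18.3 and 13.8 CPM. The genotypes overlapped there (log2 fold change -0.33 ± 0.94, SE). The order of the cell types depended on the genotype. The mean of Hdc was 16.2 CPM in WT LP ILC2s against 7.90 CPM in WT ILC2p, with overlapping libraries, and 11.8 CPM in Tgfbr2-/- LP ILC2s against 1064 CPM in Tgfbr2-/- ILC2p, without overlap. The difference between the genotype effects (ILC2p minus LP ILC2s) was 7.85 ± 1.26 (SE, log2).

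Of the FcεRI chains, Fcer1a encodes the IgE-binding α chain and Ms4a2 the signal-amplifying β chain. Fcer1a (chromosome 1, 175151402 to 175157360, minus strand) had 0.0892, 0.0581, 0.735 and 0.509 CPM in the WT ILC2p libraries. The Tgfbr2-/- libraries had 88.1, 64.0, 116 and 136 CPM, again without overlap (log2 fold change 8.64 ± 1.34, SE). Both WT libraries of experiment 1 had only 1 count each. Ms4a2 (chromosome 19, 11690013 to 11698209, minus strand) had 2 counts in Tgfbr2-/- replicate 1 of experiment 2 and 0 counts in the other 14 libraries. Thus the α chain was abundant where the β chain was at most at 0.0372 RPKM. In LP ILC2s the WT libraries of experiment 2 had 0.664 and 3.34 CPM of Fcer1a, the Tgfbr2-/- library had 0.145 CPM, and all libraries of experiment 1 had none.

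Gata2, the transcription factor of both lineages (chromosome 6, 88143885 to 88157024, plus strand), varied widely among the Tgfbr2-/- ILC2p libraries. They were at 0.396, 134, 75.5 and 322 CPM, against 0.0892, 0.0581, 1.13 and 0.339 CPM in WT. Replicate 1 of experiment 1 (4 counts) lay within the WT range although its Prss34, Hdc and Fcer1a were in or near the range of the other Tgfbr2-/- libraries. The log2 fold change was 8.77 ± 1.92 (SE). The related factor Gata1 was at 131 CPM in that library, at 0 in replicate 2 of experiment 1, and at 42.8 and 118 CPM in experiment 2. The library with the least Gata2 was thus the highest in Gata1, by 131 against 118 CPM. Both Tgfbr2-/- ILC2p libraries of experiment 1 missed many highly expressed genes (13.0% and 14.5%). The part of such missing genes in their low Gata2 or Gata1 was not tested. In LP ILC2s Gata2 had 128 counts (8.91 CPM) in WT replicate 2 of experiment 2 and 0 counts in the other 6 libraries. The same library had the highest Fcer1a of the LP ILC2 libraries. It also had all 7 macrophage markers, with a sum of 331 CPM led by C1qa at 94.0 CPM, against 41.1 CPM at most in the other LP ILC2 libraries. The part of macrophage RNA in its Gata2 was not tested.

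Cd200r3 encodes an activating receptor of basophils and mast cells (chromosome 16, 44943791 to 44981493, plus strand). It had 411 counts (17.5 CPM) in Tgfbr2-/- replicate 1 of experiment 2 and 0 counts in the other 7 ILC2p libraries, WT and Tgfbr2-/-. In LP ILC2s the WT libraries had 0, 3.36, 0.775 and 0 CPM, and the Tgfbr2-/- libraries had 0.836, 0.0308 and 0 CPM. The receptor was thus not detected in 3 of the 4 libraries in which Prss34 was at 822 CPM or more. Those 3 libraries missed 13.0%, 14.5% and 9.76% of highly expressed genes, against 1.77% in the library with its reads. The part of such missing genes in these zeros was not tested. Cd200r3 has close relatives next to it in the genome, and reads shared with them could be split between genes, so its values are less certain.

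Per transcript length, the order of the genes in Tgfbr2-/- ILC2p was Prss34 (693 ± 76.6 RPKM, SD, n = 4), Hdc (414 ± 59.9 RPKM), Mcpt8 (177 ± 121 RPKM), Cpa3 (121 ± 37.1 RPKM), Fcer1a (92.0 ± 27.7 RPKM), Gata2 (36.9 ± 35.1 RPKM), Cd200r3 (3.24 ± 6.49 RPKM) and Ms4a2 (0.00929 ± 0.0186 RPKM). Prss34 was above Hdc in all 4 libraries without overlap (lowest 616 against highest 493 RPKM). From Hdc downwards, each gene overlapped the next in the order.

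**Figure D2:**
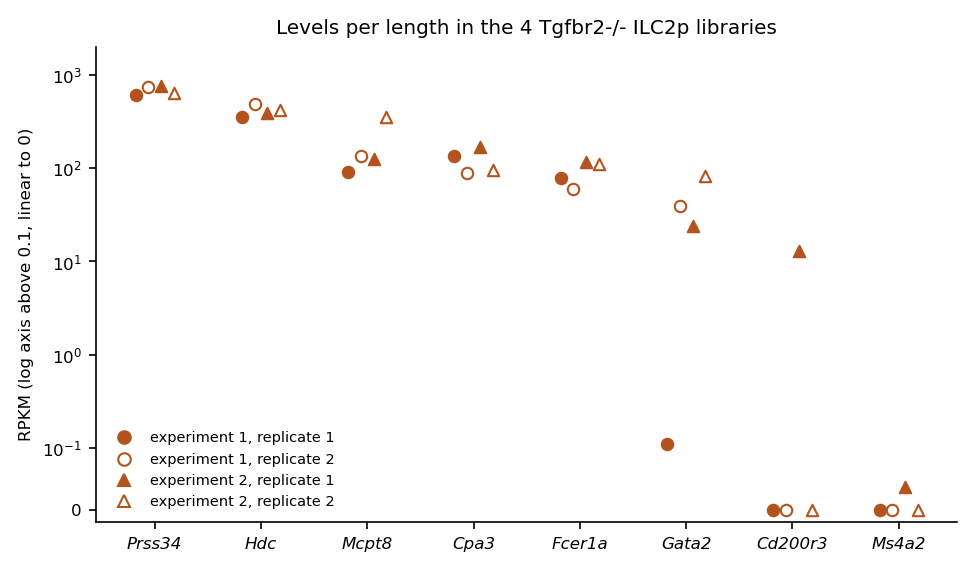
RPKM (log axis above 0.1, linear down to 0) of the 8 genes in the 4 Tgfbr2-/- ILC2p libraries, ordered by mean. Shape gives the experiment and filling the replicate. Prss34 lies between 616 and 771 RPKM, while Gata2 runs from 0.111 to 83.5 RPKM and Cd200r3 has reads in 1 library.

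The counts of genes that met the thresholds of the study (adjusted p under 0.1 and fold over 1.5 by edgeR's quasi-likelihood test) give the background for these differences. In ILC2p, 6 of the 8 genes passed the filter on low counts and 5 of them were called, all higher in Tgfbr2-/- cells. Of all 9242 genes tested, 321 (3.47%) were called, and 241 (2.61%) were called higher. Since the genes were chosen with this contrast known, nothing is read from the count. Every Tgfbr2-/- library was above every WT library for 4 of the 8 genes, as for 580 of 9242 genes tested (6.28%). Among the 321 called genes, in order of log2 fold change, Gata2 was at rank 9, Fcer1a at 19, Prss34 at 53, Mcpt8 at 114 and Hdc at 120. Prss34 and Hdc were called in each experiment alone and Mcpt8 and Fcer1a were not. Without the 3 ILC2p libraries in which over 10% of highly expressed genes were missing, 2 of the 8 genes (Prss34 and Hdc) were called, beside 83 over all genes. The call of Gata2 was lost on leaving out any 1 of 6 of the 8 libraries (all but replicate 1 of Tgfbr2-/- in either experiment). With the replicate number as a block, 4 of the 8 genes were called, beside 175 over all genes, and Gata2 was not.

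In LP ILC2s 2 of the 8 genes (Hdc and Cd200r3) passed the filter and 0 were called. Of 11981 genes tested 0 (0%) were called by edgeR's quasi-likelihood test, while 557 had an unadjusted p under 0.05 and DESeq2 called 338. Between the cell types, 7 of the 8 genes passed the filter and 6 were called, all higher in ILC2p when the genotypes are averaged, against 665 of 12806 genes (5.19%) called higher in ILC2p and 2748 (21.5%) called in either direction. Among WT libraries alone the means of Hdc (given above), Fcer1a (1.0 CPM in LP ILC2s against 0.348 CPM in ILC2p) and Gata2 (2.23 against 0.404 CPM, from 1 LP ILC2 library) were higher in LP ILC2s, with overlapping libraries, so that the order of these 3 genes was set by Tgfbr2-/- ILC2p. Cd200r3, the gene without a call, had a log2 difference of 4.61 ± 2.25 (SE) in the other direction, and it was called with DESeq2 and without the only ILC2p library that had its reads. LP ILC2s and ILC2p differ in tissue, in mouse model and in experiment, which cannot be told apart. Without the 3 ILC2p libraries with the most missing genes the calls of Hdc and Gata2 between the cell types were lost. For the difference between the genotype effects in the cell types, 1 of the 5 genes in which it could be estimated (Hdc) was called, against 127 of 12806 genes (0.992%). It could not be estimated for Prss34 and Mcpt8, which had 0 counts in LP ILC2s, and Ms4a2 did not pass the filter. These comparisons share libraries with each other.

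The level in WT ILC2p was then set against that in Tgfbr2-/- ILC2p of the same experiment. WT Prss34 was at 0.228% of the Tgfbr2-/- mean in experiment 1 and 0.401% in experiment 2, Mcpt8 at 0.378% and 0.553%, Fcer1a at 0.0969% and 0.493%, Gata2 at 0.110% and 0.369%, and Hdc at 0.218% and 1.28%. The share of Gata2 in experiment 1 rests on 1 count in each WT library and on 1 Tgfbr2-/- library, and it was 18.6% without replicate 2 of Tgfbr2-/-. In experiment 2, without the same replicate number, the share of Gata2 was 0.974% and that of Mcpt8 1.25%. The 10 neutrophil genes were at a median of 0.210% (0.181% to 0.638%) in experiment 1 and 0.459% (0.368% to 0.569%) in experiment 2. The shares of Prss34 and Mcpt8 thus lay within the range of the neutrophil genes in both experiments. For Mcpt8 in experiment 2 this held only for the mean: against single Tgfbr2-/- libraries the share was 1.25% (replicate 1) and 0.355% (replicate 2), both outside the range. Those of Fcer1a and Gata2 were below that range in experiment 1. Both rest on 1 count in each WT library, under the floor of 3 counts, so their place against the range is uncertain. The share of Hdc was above the range in experiment 2. This share of Hdc rests on 1 WT library (21.1 CPM, against 5.77 CPM in the other), and WT libraries were not left out here. Among the eosinophil genes with a share (6 in experiment 1 and 8 in experiment 2), medians were 0.066% and 0.698%. Ear1 was at 0.291% and 0.565% and Prg2 at 0.132% and 0.258%, but Ccr3 was at 228% and 152% and Siglecf at 768% in experiment 2. The shares of Prg2 rest on replicate 1 of Tgfbr2-/- (311 and 282 CPM), since replicate 2 was at 0.311 and 0.387 CPM. For Prss34, Mcpt8, Fcer1a, Gata2 and Hdc, and for the neutrophil genes other than Cxcr2, the share was higher in experiment 2 than in experiment 1. The 6 early myeloid genes (Mpo, Elane, Prtn3, Ctsg, Ms4a3 and Csf1r) were at medians of 9.21% and 8.35%, and Cpa3 was at 119% and 83.3%. The ILC2 genes with reads in Tgfbr2-/- ILC2p were at medians of 227% (11 genes, 72.9% to 539%) and 182% (14 genes, 8.71% to 662%). In experiment 1 this leaves out Areg and Il13, at 27.1 and 0.402 CPM in WT and 0 in Tgfbr2-/-, and Il5, at 0 in both. Lower in WT than in Tgfbr2-/- were Klrg1 in experiment 1 (72.9%) and Il5 (17.1%) and Il13 (8.71%) in experiment 2.

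**Figure D3:**
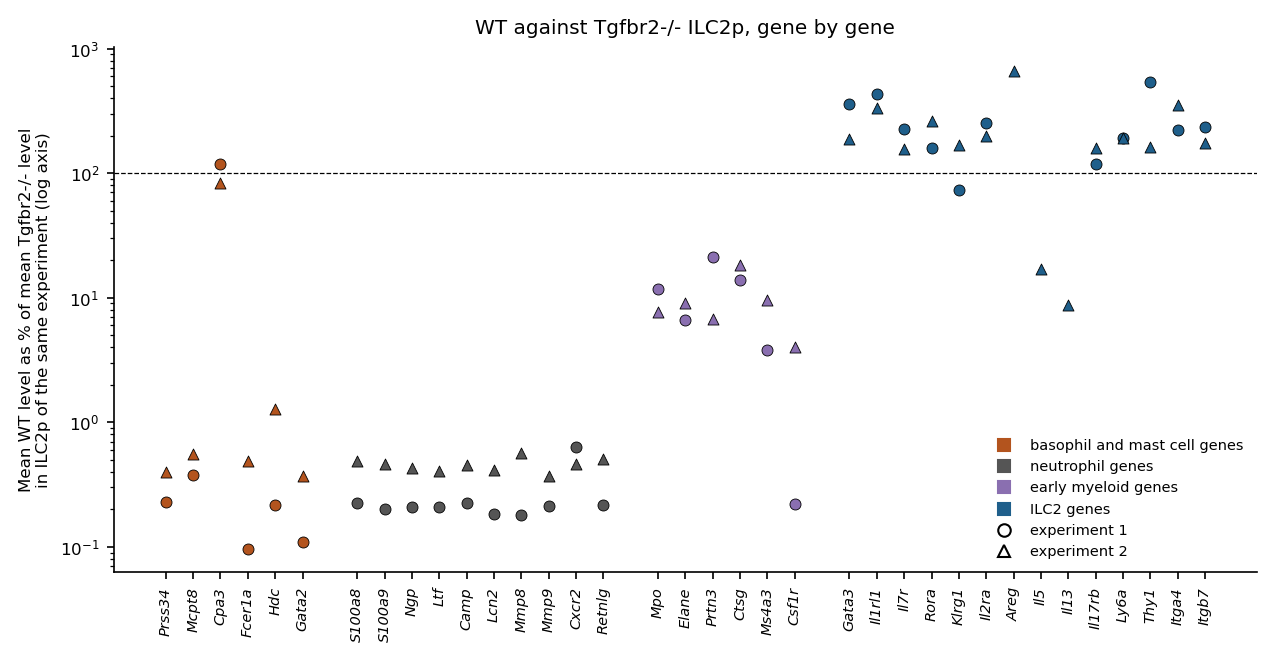
Mean WT level as a percentage of the mean Tgfbr2-/- level in ILC2p (log axis) for the basophil and mast cell genes and for neutrophil, early myeloid and ILC2 markers on the x axis, with circles for experiment 1 and triangles for experiment 2. The dashed line is 100%. Prss34 and Mcpt8 lie with the neutrophil genes below 1%, and Cpa3 lies near 100%. The point of Gata2 in experiment 1 rests on 1 Tgfbr2-/- library. Those of Fcer1a and Gata2 in experiment 1 rest on 1 count in each WT library.

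Genes with the most similar profile were then sought among genes with a mean of at least 1 CPM, by Pearson's r of log2(CPM + 1), as a description, since the libraries fall into groups and genes that separate the genotypes of ILC2p tend to be alike in this measure. Over the 8 ILC2p libraries, those most like Prss34 were Clec5a, Ccl6, Ngp, Lcn2 and Lyz1 (r = 0.999 each), of which Ngp and Lcn2 are in the neutrophil list. Those most like Mcpt8 were F13a1 (0.999), Gda (0.998), Slfn1 (0.997), Cyp4f18 and Csf3r (0.994 each). Those most like Gata2 were Abcd2 (0.998), Cd209a (0.995), Sept5 (0.994), Sgms2 and Lmo1 (0.992 each), and those most like Cpa3 were Etfa (0.955), Snd1 (0.940), Tmx2 (0.918), Hmox2 (0.915) and Nrgn (0.903). Over all 15 libraries the nearest were Cxcr2 for Prss34 (0.998), F13a1 for Mcpt8 (0.999), Sema4a for Cpa3 (0.972), which also had Mpo among its 5 (0.949), and Cd209a for Gata2 (0.996). Prss34 itself was close to Mcpt8 (0.985) and to Fcer1a (0.994) over ILC2p, and such small differences in r do not separate profiles.

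Markers of the related cell types were read in every group. Of the 8 mast cell markers (Cma1, Mcpt1, Mcpt2, Mcpt4, Tpsab1, Tpsb2, Mrgprb1 and Mrgprb2), 0 had reads in Tgfbr2-/- ILC2p, only Mrgprb1 had reads in WT ILC2p (0.0283 CPM at most) and only Tpsab1 in Tgfbr2-/- LP ILC2s (0.579 CPM at most). Of the 3 genes in the basophil list, Prss34 and Mcpt8 were detected in all ILC2p libraries and in no LP ILC2 library. Cd200r3, a receptor of mast cells as well, was detected as given above. The 8 eosinophil genes summed to 15.9 to 405 CPM in Tgfbr2-/- ILC2p, with Prg2, Ear1 or Ear2 as the most abundant, and to 0.349 to 6.21 CPM in WT ILC2p, with Ccr3 or Prg2. Prg2 itself was at 311 and 282 CPM in Tgfbr2-/- replicate 1 of both experiments and at 0.311 and 0.387 CPM in replicate 2. The early myeloid genes summed to 8273 to 16501 CPM in Tgfbr2-/- and 611 to 1725 CPM in WT ILC2p, with Mpo as the most abundant.

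The other genes of these lineages were taken from 5 lists of 66 genes, which were not chosen for how they moved but were written with earlier results known. In ILC2p 38 of the 66 were tested, and 11 rose and 0 fell in Tgfbr2-/- cells by edgeR's quasi-likelihood test, beside 241 of 9242 genes (2.61%) called higher and 80 called lower. The median log2 fold change of the 38 was 3.0, against -0.10 for all genes tested. The filter keeps genes that are high in only 1 genotype, and the lists were written with results known, so that nothing is read from this median. Of the 13 IgE and activating receptor genes, 8 were tested and 4 rose. C5ar1, the receptor of complement C5a, was at 0.654 to 1.81 CPM in WT and 353 to 665 CPM in Tgfbr2-/- ILC2p (log2 fold change 8.41 ± 0.60, SE, adjusted p = 9.59e-05). The IgG receptors Fcgr3 (7.73 ± 0.95, SE, adjusted p = 0.00245) and Fcgr2b (7.32 ± 1.35, SE, adjusted p = 0.025) rose as well. Fcer1g, the γ chain that FcεRI shares with other Fc receptors, was at 13.2 to 80.8 CPM in WT and 456 to 806 CPM in Tgfbr2-/- ILC2p (4.18 ± 0.61, SE, adjusted p = 0.00677). All 4 are also expressed by other myeloid cells, neutrophils among them.

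Among the 17 growth factor receptor and surface genes, 12 were tested and 4 rose: the shared β chain of the IL-3, IL-5 and GM-CSF receptors Csf2rb (6.37 ± 1.56, SE, adjusted p = 0.0839), the GM-CSF receptor chain Csf2ra (5.99 ± 1.47, SE, adjusted p = 0.0861), the degranulation marker Cd63 (4.51 ± 0.74, SE, adjusted p = 0.0141) and the lectin Clec12a (4.33 ± 0.90, SE, adjusted p = 0.0458). The calls of Csf2rb and Csf2ra were lost in 13 and 12 of 22 alternatives. Kit, the mast cell growth factor receptor, was at 12.7 to 132 CPM in WT and 16.3 to 237 CPM in Tgfbr2-/- ILC2p (0.49 ± 0.99, SE, adjusted p = 0.954), and the integrin Itgb3 had a log2 fold change of -1.19 ± 1.06 (SE, adjusted p = 0.893). Of the IL-3 receptor, the α chain Il3ra was at 0 to 13.4 CPM in WT and 0 to 19.6 CPM in Tgfbr2-/- ILC2p. Of the 11 histamine, amine and lipid mediator genes 5 were tested and 1 rose, Alox5ap, the partner of 5-lipoxygenase in leukotriene synthesis (6.01 ± 0.87, SE, adjusted p = 0.00647). Alox5 itself was at 279 to 506 CPM in WT and 273 to 632 CPM in Tgfbr2-/- ILC2p (0.12 ± 0.39, SE, adjusted p = 0.978).

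Of the 13 transcription factors, 10 were tested and 1 rose, Spi1 (PU.1), from 1.33 to 4.52 CPM in WT to 469 to 813 CPM in Tgfbr2-/- ILC2p (7.69 ± 0.57, SE, adjusted p = 0.000124). Gata1 (8.13 ± 2.40, SE, adjusted p = 0.176) and Runx1 (-0.12 ± 1.00, SE, adjusted p = 0.993) were not called. Of the 12 granule protease genes, 3 were tested and 1 rose, the protease inhibitor Serpinb1a (2.12 ± 0.36, SE, adjusted p = 0.0162). The proteoglycan Srgn, which packs granules, had a log2 fold change of 0.67 ± 0.25 (SE, adjusted p = 0.366), and Ctsg, which is also in the early myeloid list, of 2.62 ± 0.95 (SE, adjusted p = 0.336). The 9 others, the chymases and tryptases among them, were too low to test. In LP ILC2s 39 of the 66 were tested and 0 were called, with a median log2 fold change of 0.21 against -0.01 for all genes.

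**Figure D4:**
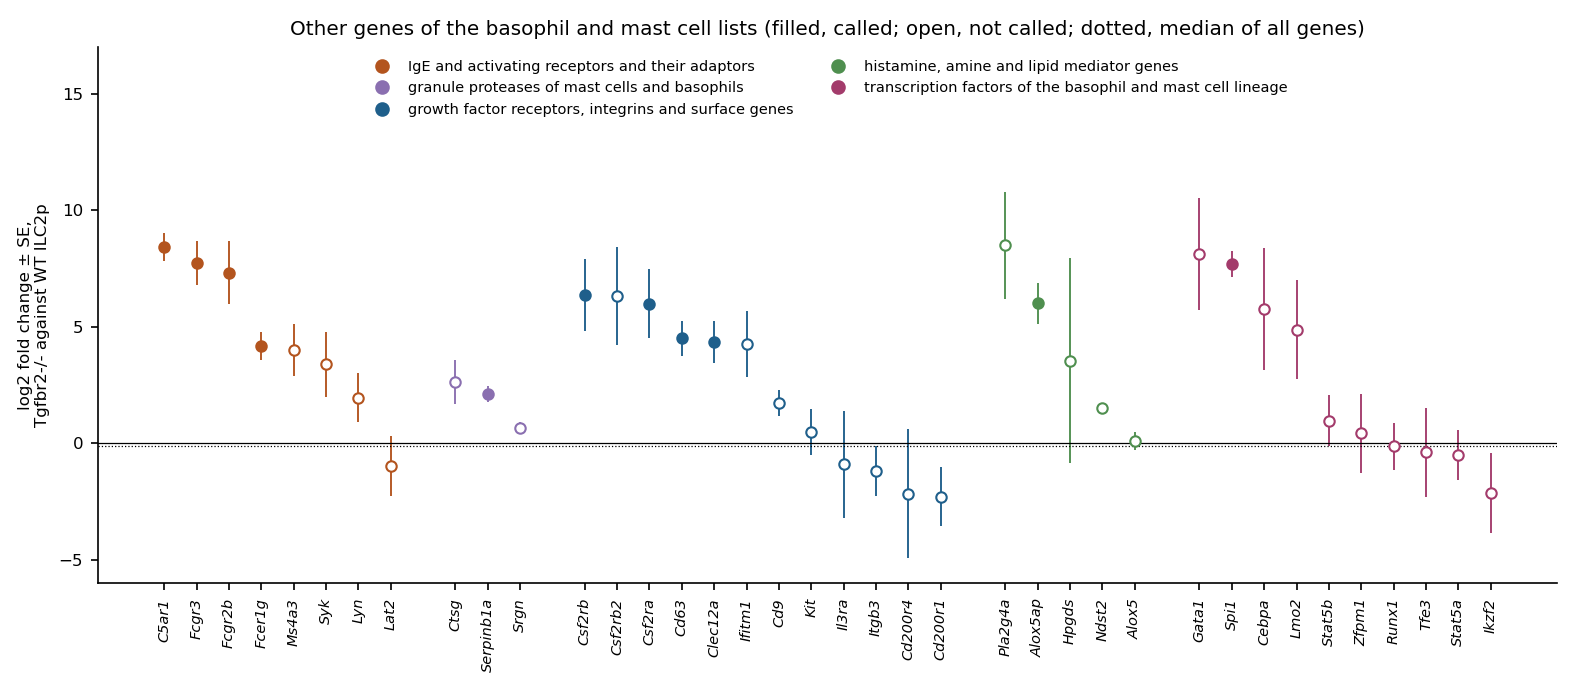
Log2 fold change ± SE between Tgfbr2-/- and WT ILC2p (y axis) of the 38 genes tested of the 5 lists, coloured by list. Filled points were called and open points were not, the dotted line is the median of all genes tested (-0.10), and no error bar is drawn for Ndst2, whose SE was 27.2. The 11 called genes are all above 0.

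Between the cell types, 24 of the 49 list genes tested were called, 18 higher in ILC2p and 6 higher in LP ILC2s, beside 2748 of 12806 genes (21.5%) called, 665 (5.19%) higher in ILC2p and 2083 higher in LP ILC2s. The median log2 difference (LP ILC2s minus ILC2p) was -1.07, against 0.17 for all genes. Higher in ILC2p were Ctsg, Ms4a3 and Clec12a, which had 0 counts in all LP ILC2 libraries, and C5ar1 (-7.52 ± 0.75, SE, adjusted p = 0.00018), Alox5ap (-7.24 ± 1.21, SE, adjusted p = 0.00245), Csf2rb (-7.15 ± 1.36, SE, adjusted p = 0.00515), its copy Csf2rb2 (-7.12 ± 1.57, SE, adjusted p = 0.0146) and the progenitor factor Lmo2 (-7.71 ± 1.60, SE, adjusted p = 0.00764), all by edgeR's quasi-likelihood test. In WT libraries alone the order was not that of the average for C5ar1, with a mean of 3.06 CPM in LP ILC2s against 1.29 CPM in ILC2p, nor for Spi1, Cd63, Fcgr2b, Fcgr3 and Fcer1g, which are among the 18. Nor was it for Cd200r2, whose WT mean was 0.49 CPM in LP ILC2s and 0.521 CPM in ILC2p. The transcription factors Gfi1b (-5.86 ± 1.71, SE, adjusted p = 0.0416) and Cebpa (-5.82 ± 1.72, SE, adjusted p = 0.0347) were also higher in ILC2p. Higher in LP ILC2s were Tph1, the first enzyme of serotonin synthesis (8.74 ± 1.59, SE, adjusted p = 0.00679), Cyp11a1, the first enzyme of steroid synthesis (adjusted p = 0.0115), Slc18a2, the vesicular transporter of histamine and serotonin (3.91 ± 1.41, SE, adjusted p = 0.0782), Cd200r2 (3.85 ± 1.10, SE, adjusted p = 0.0303), Kit (1.5 ± 0.53, SE, adjusted p = 0.0733) and Srgn (0.66 ± 0.15, SE, adjusted p = 0.0108). The calls of Slc18a2 and Kit, and that of Fcgr2b among the 18, were lost in 14, 9 and 9 of 26 alternatives. Tph1 was at 7.67 to 98.0 CPM in the 7 LP ILC2 libraries and at 0.170 CPM at most in WT ILC2p, but at 59.5 CPM in 1 Tgfbr2-/- ILC2p library. Cyp11a1 had 0 counts in all 8 ILC2p libraries and was at 0 to 5.98 CPM in WT and 3.33 to 8.99 CPM in Tgfbr2-/- LP ILC2s. Enzymes of amine and steroid synthesis that mast cells use were thus measured in LP ILC2s, in which Prss34 and Mcpt8 had no reads.

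For 5 of the list genes the genotype effect differed between the cell types, in each case with a higher log2 fold change in ILC2p: Fcer1g (difference of log2 fold changes 3.70 ± 0.76, SE, adjusted p = 0.0507), C5ar1 (10.21 ± 1.90, SE, adjusted p = 0.0496), Csf2ra (7.17 ± 1.59, SE, adjusted p = 0.0733), Alox5ap (9.32 ± 2.18, SE, adjusted p = 0.0936) and Fcgr3 (7.0 ± 1.67, SE, adjusted p = 0.0965), by edgeR's quasi-likelihood test over all 15 libraries. Over all genes 127 of 12806 (0.992%) were called for it. The calls were lost in 16 of 26 alternatives for Fcgr3, 12 for Alox5ap, 10 for Csf2ra, 6 for Fcer1g and 1 for C5ar1. Without the Tgfbr2-/- LP ILC2 library of experiment 2, 0 of the list genes were called for this difference.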

How the data were processed

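RNA-seq of sorted LP ILC2s and BM ILC2p was aligned by the authors with TopHat (Bowtie2 is named in the submitters' processing notes) to mm9. The deposited tables hold, for each RefSeq gene, whole-number read counts and RPKM values, which the authors made with the rpkmforgenes program over full transcripts without regions where genes overlap. Strand is not given in the sources used here, so antisense reads cannot be told apart, and 205 entries join several genes. Related proteases can share reads.

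Counts were tested with edgeR 4.0.16 (R 4.3.3) by its quasi-likelihood test, with TMM scaling, filterByExpr and the experiment as covariate, on the 8 ILC2p libraries, on the 7 LP ILC2 libraries, and on all 15 for the cell types and the interaction. Genes were called at a Benjamini-Hochberg adjusted p under 0.1 and a fold over 1.5, the thresholds of the study. SE is the log2 fold change divided by the square root of F. The scripts were tested on simulated data. The 8 genes, the 5 lists and the markers were chosen with earlier results of these data known. The genes named from the lists are the called ones (up to the 10 largest in each direction) and the 2 most abundant of each list, and Il3ra, Gata1, Ctsg and Prg2 were added after their values were seen. Likeness was computed for Prss34, Mcpt8, Cpa3 and Gata2. Other settings were limma 3.58.1 on log2(RPKM + 1) or log2(RPKM + 0.1), DESeq2 1.42.0, other scalings and filters, a stricter threshold, no experiment term, each experiment alone, a replicate block and leaving out each library. Leaving out the 3 libraries with most missing genes was chosen after seeing the data. Protein sequences were not used here.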

Additional observations from a re-analysis of the deposited data

Results flagged for a closer look

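Of 19 groups of 4 libraries with reads of the 8 genes, 5 held a library far from the other 3, where chance gives about 1 in 20. In 3 of the 5 (Gata2, Cd200r3 and Ms4a2) the other 3 libraries were at 0, so that any read sets a library apart and this chance rate does not apply, and the 2 counts of Ms4a2 are under the floor of 3 counts. Prss34 was at 5.15 CPM in WT ILC2p replicate 1 of experiment 2, above 1.98 to 2.18 CPM in the other WT ILC2p libraries. Mcpt8 was at 355 CPM in Tgfbr2-/- ILC2p replicate 2 of experiment 2, above 84.3 to 118 CPM in the others. Gata2 was at 8.91 CPM in WT LP ILC2 replicate 2 of experiment 2 and at 0 in the other 3. Tgfbr2-/- ILC2p replicate 1 of experiment 2 was alone in its group with reads of Cd200r3 (17.5 CPM) and Ms4a2 (0.0849 CPM, 2 counts).

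The genotype effect differed between ILC2p and LP ILC2s by the interaction term of edgeR's quasi-likelihood test for 5 list genes. The difference of log2 fold changes was 9.32 for Alox5ap, 3.70 for Fcer1g, 10.21 for C5ar1, 7.0 for Fcgr3 and 7.17 for Csf2ra, each higher in ILC2p.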

How the results depend on the processing

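No result changed direction among called values. The number of genes called between the genotypes of ILC2p (321) was 1229 with DESeq2, 175 with the replicate block, 41 and 93 in experiments 1 and 2 alone, 83 without the 3 libraries with most missing genes (chosen after seeing the data), and 175 to 260 on leaving out 1 library (175 and 186 without WT replicates 1 and 2 of experiment 2, 202 without WT replicate 2 of experiment 1). Of the list genes in ILC2p (11), 21 were called with DESeq2, 4 and 6 in experiments 1 and 2 alone, 6 without those 3 libraries, and 7 to 13 on leaving out 1 library, and C5ar1, Fcgr3 and Spi1 were called in all 22 alternatives. In LP ILC2s (0), DESeq2 called 338 and the fit without a filter 3, and 0 to 0 were called on leaving out 1 library. The interaction (127) gave 68 at adjusted p under 0.05, 1477 with DESeq2, 196 with library size scaling, 203 with upper quartile scaling, 259 without a filter, 382 and 360 on log2(RPKM + 1) and log2(RPKM + 0.1) with limma, 658 without those 3 libraries, and 19 (without the Tgfbr2-/- LP ILC2 library of experiment 2) to 401 (without Tgfbr2-/- ILC2p replicate 1 of experiment 2) on leaving out 1 library. It was 49 to 71 without any other LP ILC2 library but WT replicate 1 of experiment 2 (91), and 309 without WT ILC2p replicate 1 of experiment 1. Its list genes (5) were 1, 14, 8, 10 and 8 at adjusted p under 0.05, with DESeq2, without a filter, on log2(RPKM + 1) and without those 3 libraries, and 0 to 7 on leaving out 1 library. The counts between cell types (2748 genes and 24 list genes) stayed within 1.5 times in all alternatives, at 1935 to 3261 and 17 to 25 on leaving out 1 library. The cause of these differences was not tested. Over the alternatives the log2 fold change in ILC2p ranged from 7.64 to 8.80 for Prss34, 6.29 to 8.16 for Mcpt8, 6.05 to 9.86 for Fcer1a, 6.19 to 8.86 for Hdc, 3.96 to 9.70 for Gata2 and -0.26 to 0.35 for Cpa3. With library size scaling the median log2 fold change of all genes moved from -0.10 to -0.31 in ILC2p, from 0.17 to 0.33 between cell types and from -0.31 to -0.60 for the interaction. Libraries with the same replicate number did not deviate together, which does not exclude that they were handled as pairs. The differences between replicates 1 and 2 in WT and Tgfbr2-/- libraries correlated at -0.0682, -0.0147 and -0.0548 over 10136 genes. This could be checked in 3 sets of libraries. With the replicate block the list genes called in ILC2p stayed within 1.5 times of the count without it. Replicate numbers follow the sample titles, and other labels of the deposit number some Tgfbr2-/- replicates differently. Depth limits what can be said of Ms4a2, and of Cd200r3 in ILC2p, where a count of 0 allows up to 3 counts in a library. For Cd200r3 the missing genes of the ILC2p libraries are a further limit.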

Other observations

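The remaining marker lists were read in ILC2p as summed CPM. Stem and progenitor genes were at 263 to 605 CPM in Tgfbr2-/- and 15.6 to 204 CPM in WT libraries. Kit led them by group mean, but Cd34 (267 CPM) led in Tgfbr2-/- replicate 1 of experiment 1. Sox4 (72.8 and 136 CPM) led in both Tgfbr2-/- libraries of experiment 2. Erythroid genes, led by Car1 in group mean, were at 44.8 to 461 CPM in Tgfbr2-/- and 28.8 to 138 CPM in WT libraries. Klf1 (26.8 CPM) led them in WT replicate 2 of experiment 1. Macrophage genes were at 301 to 362 CPM in Tgfbr2-/- and 16.6 to 32.0 CPM in WT libraries. Megakaryocyte genes were at 0.0991 to 86.0 CPM and 0.116 to 147 CPM, T cell genes at 0.696 to 44.3 CPM and 0.0892 to 70.2 CPM, B cell genes at 1.98 to 165 CPM and 0.707 to 42.0 CPM, and intestinal epithelial genes at 8.29 to 62.6 CPM and 2.05 to 28.5 CPM, in Tgfbr2-/- and WT libraries respectively. In LP ILC2s, intestinal epithelial genes led by Krt8 reached 1015 CPM in 1 Tgfbr2-/- and 409 CPM in 1 WT library.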
